A study of Mus musculus with 8 samples.

Results

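The mitochondrial respiratory chain was read in 8 mouse tumours through 80 nuclear genes that encode, or are named after, subunits of its 5 complexes. The genes were taken by symbol: Ndufa, Ndufb, Ndufc, Ndufs or Ndufv with a number for complex I, Sdha to Sdhd for complex II, Uqcr for complex III, Cox4 to Cox8 for complex IV and Atp5 for complex V. On the array, 89 symbols met this rule, and 80 of the 22180 genes with a probe set of their own were among them. The other 9 (Cox6c, Ndufb2, Ndufb4, Ndufb4b, Ndufb4c, Ndufs5-ps, Ndufs6, Ndufs6b and Uqcr10) shared each of their probe sets with another symbol and were not analysed here. Complex I had 33 measured genes, complex II 4, complex III 8, complex IV 17 and complex V 18. These counts include 2 pseudogenes, Atp5c1-ps and Uqcrh-ps1. The 13 subunits encoded by mitochondrial DNA were not analysed here.

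All 8 tumours form 1 group (n = 8 arrays, 1 per tumour), and no normal tissue or untransduced cells were analysed here. Each grew under the skin from mouse neural crest cells, the embryonic source of sympathetic neurons, into which N-Myc had been introduced. N-Myc is a transcription factor of the MYC family, and its gene is amplified in a share of aggressive human neuroblastomas. The injected cells mixed p53+/- and p53-/- genotypes, about 10000 cells were injected 48 hours after infection, and tumours were removed after about 50 days. Nude mice, which lack T cells, and C57Bl/6 mice both served as hosts, and the host of each single tumour is not stated. Nor is it stated whether the tumours had separate hosts or cultures, so the p-values measure the spread between these samples only, which may be technical. In bulk tumour RNA, fewer cells of a type and less RNA per cell cannot be told apart. The median log2 level of an array was 5.63 to 5.75. Of 13 sympathoadrenal markers, 11 were measured and all 11 were above background over the 8 tumours. Tumour 6 stood apart, with a mean deviation of these markers of -2.18 log2 units and with Tfap2b at 4.88 and Dbh at 5.72. Slopes on the muscle mean, counts on the sympathoadrenal mean and the ranges that tumour 6 sets below are also given without it.

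The respiratory chain passes electrons from NADH (complex I) or succinate (complex II) through complex III to oxygen at complex IV, and complex V uses the resulting proton gradient to make ATP. Complex II is encoded wholly in the nucleus, and the other complexes combine nuclear and mitochondrial products. Succinate dehydrogenase genes are tumour suppressors in paraganglioma and phaeochromocytoma, tumours of the sympathoadrenal lineage. Several subunits of complex IV exist as paired isoforms, 1 made in most cells and 1 mainly in heart and muscle, lung or testis.

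Most subunit genes were expressed. A gene was called above background where its mean log2 level exceeded the 95th percentile of odorant, pheromone and bitter taste receptor probe sets on the same arrays (5.45 to 5.66) with an adjusted p under 0.05 in limma, a linear model with moderated variance. Of the 80 genes, 72 (90.0%) were called, against 57.3% of all 22180 genes, and each of the 72 was over that level in every tumour. The largest adjusted p among them was 0.000147 (limma, Cox6a2). By complex, 32 of 33 genes were called in complex I, 4 of 4 in complex II, 7 of 8 in complex III, 13 of 17 in complex IV and 16 of 18 in complex V. The mean levels of the 72 genes ran from 6.22 for Cox6b2 to 12.60 for Atp5md, with a median of 9.65, beside a median of 7.83 for all genes called. Levels of different probe sets also depend on the probes and are not amounts of transcript, so the complexes are compared below by how their genes differed between tumours.

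**Figure D1:**
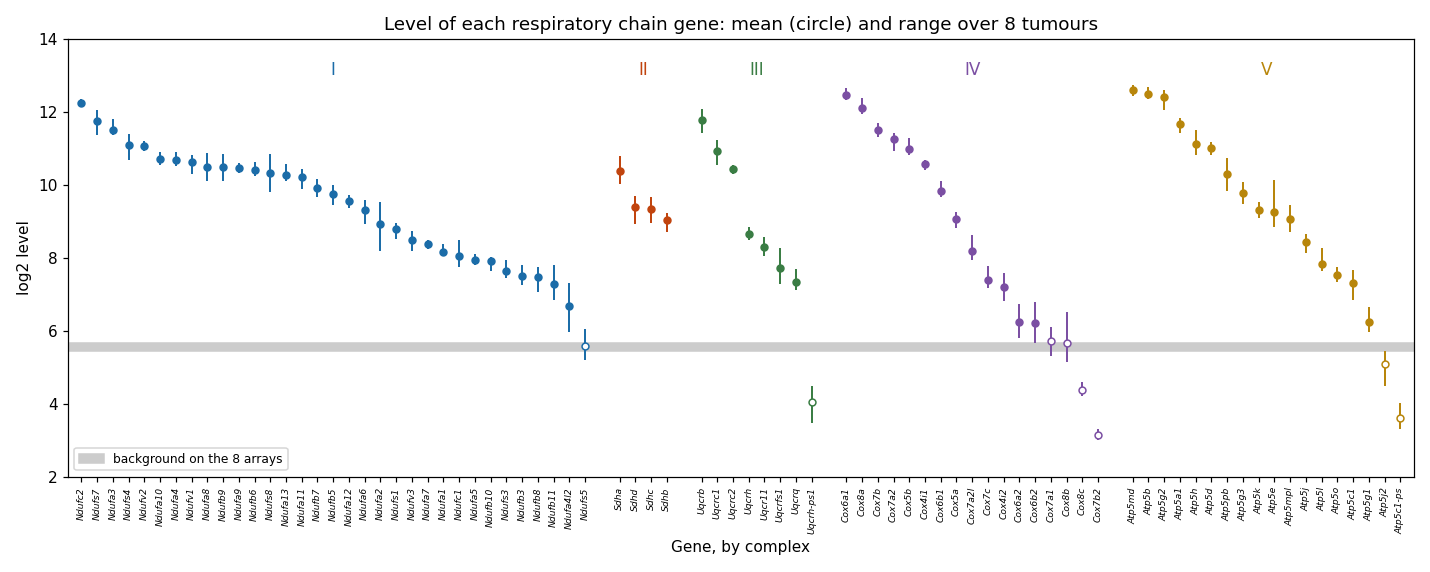
Log2 level (vertical axis) of each of the 80 genes, grouped by complex. Circles are means and lines run from the lowest to the highest of the 8 tumours. Filled circles are the 72 genes called above background, open circles the 8 that were not, and the grey band is the background of the 8 arrays (5.45 to 5.66).

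The 8 genes that were not called were of 4 kinds. The pseudogenes Atp5c1-ps (3.60 ± 0.23, mean ± SD, n = 8) and Uqcrh-ps1 (4.05 ± 0.34) were below background in every tumour. So were Cox7b2 (3.14 ± 0.093) and Cox8c (4.37 ± 0.097), complex IV isoforms known from testis. Another isoform known from testis, Cox6b2 (6.22 ± 0.37), was called above background, while 0 of 6 measured spermatid markers were. The heart and muscle isoforms Cox7a1 (5.72 ± 0.26) and Cox8b (5.66 ± 0.49) lay at background on average, over it in 4 and 3 tumours. The last pair, Ndufs5 (5.57 ± 0.29) of complex I and Atp5j2 (5.09 ± 0.30) of complex V, are subunits made in most cells. Ndufs5 was over background in 3 tumours and Atp5j2 in 0. A further probe set of Ndufs5 is shared with a pseudogene symbol and was not used here.

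The promoters of the expressed genes are shown because nuclear respiratory genes are known targets of the factors Nrf1 and Gabpa. RefSeq windows of 300 bases (250 before to 50 after a start, assembly GRCm38.p6) were matched to 59 of the 72 genes called, in 64 windows. The Nrf1 motif, searched on both strands as GCGC, any base, then TGCGC, was in 15 of the 64 windows (23.4%), in 9.41% of windows of all genes called above background and in 4.6% of all 32851 windows. The Gabpa motif, searched as CCGGAAG on both strands, was in 17 of 64 (26.6%), 16.2% and 8.86%. The E-box CACGTG of the Myc family, a palindrome, was in 7 of 64 windows (10.9%), 9.74% and 7.15%. A match is a description of the sequence and not a binding site. None of these motifs contains another, and they can share at most 1 end letter. In complex V, 6 of 17 windows held the Nrf1 motif, in complex I 5 of 30 (2 of them of Ndufa5), in complex III 1 of 4, in complex IV 1 of 10, and in complex II 2 of 3, those of Sdha and Sdhd.

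The last 170 bases before the start are given for 4 genes, 5′ to 3′ on the gene's own strand (the minus strand for all 4). Sdha (chr13:74350241-74350410) is shown for its 3 Nrf1 matches, in capitals, the most of any of these genes. Sdhd (chr9:50603850-50604019) and Cox6a1 (chr5:115348959-115349128) are shown for the Nrf1 and Gabpa matches they share, both in capitals. Cox8b (chr7:140900447-140900616), the muscle isoform, held neither motif, and its capitals mark the E-box CAGCTG read by muscle factors such as Myod1.
Sdha: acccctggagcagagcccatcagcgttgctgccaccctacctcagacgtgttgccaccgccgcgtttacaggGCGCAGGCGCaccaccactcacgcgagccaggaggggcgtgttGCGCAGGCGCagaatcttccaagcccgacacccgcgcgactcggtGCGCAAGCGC
Sdhd: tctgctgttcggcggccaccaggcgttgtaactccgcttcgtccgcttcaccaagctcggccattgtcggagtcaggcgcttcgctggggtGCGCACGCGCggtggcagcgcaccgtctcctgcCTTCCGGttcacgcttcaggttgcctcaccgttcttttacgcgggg
Cox6a1: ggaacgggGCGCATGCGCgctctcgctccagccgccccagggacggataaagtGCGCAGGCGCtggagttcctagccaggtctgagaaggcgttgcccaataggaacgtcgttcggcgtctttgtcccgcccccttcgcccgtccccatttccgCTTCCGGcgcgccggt
Cox8b: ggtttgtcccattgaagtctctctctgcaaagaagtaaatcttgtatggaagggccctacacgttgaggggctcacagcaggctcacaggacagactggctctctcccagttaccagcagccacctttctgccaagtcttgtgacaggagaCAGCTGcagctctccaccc
The E-box CAGCTG was in 6.25% of the windows of respiratory genes called, and in 15.8% of windows of all genes called.

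The expressed subunit genes differed little between tumours. Their median SD over the 8 tumours was 0.17 log2 units, against 0.23 for all genes called above background, and 55 of the 72 had an SD under that second value. Among genes of like level the medians were similar to these: between 8.14 and 10.76, which holds the middle 36 subunit genes, the median SD was 0.16 for those 36 and 0.22 for all 4993 genes called. An SD of 0.5 or more was found for 1 of 72 genes, Ndufa4l2, against 9.38% of all genes called, and without tumour 1, 5 or 7 for 0. By complex the median SD was 0.14 in complex IV, 0.17 in complexes I and V, 0.18 in complex III and 0.22 in complex II. No array was repeated on 1 tumour, so how much of these SDs is technical was not tested.

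**Figure D2:**
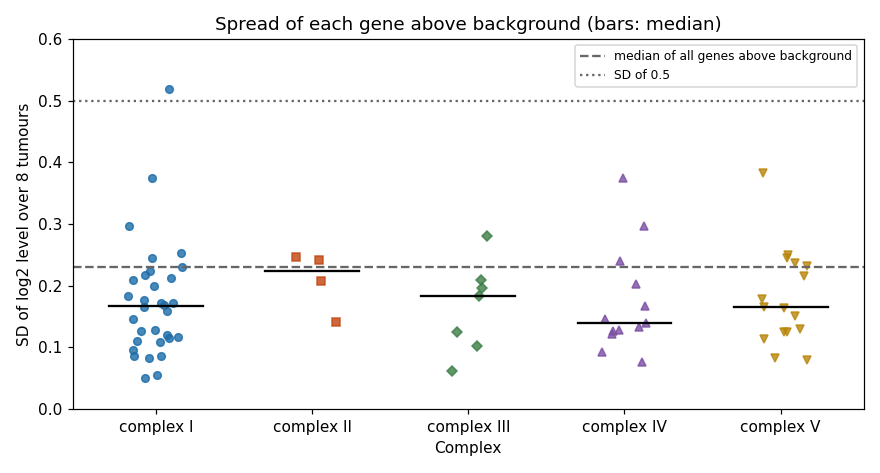
SD of the log2 level over the 8 tumours (vertical axis) of the 72 genes called above background, by complex. Each point is a gene, bars are medians, the dashed line is the median of all genes called (0.23) and the dotted line an SD of 0.5, which 1 gene, Ndufa4l2 of complex I, exceeded.

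Where the subunit genes did differ, tumour 7 was the lowest sample for complexes I, II, III and V. Each gene was centred on its own mean and the genes of a complex were averaged in each tumour. In tumour 7 this deviation was -0.16 for complex I, -0.28 for complex II, -0.18 for complex III and -0.13 for complex V, the lowest of the 8 tumours for each of these complexes under each scaling, probe set and membership alternative run. It was -0.035 for complex IV, for which tumours 5 and 1 were slightly lower (-0.047 and -0.043), though tumour 7 was the lowest with arrays centred, with probe sets averaged or without the tissue-restricted isoforms, and tumour 3 after a repeated quantile normalization. All genes called averaged -0.034 in tumour 7. In that tumour 56 of the 72 subunit genes were below their own mean, against 57.5% of all genes called. Of the 72 subunit genes, 29 had their lowest level in tumour 7, against 17.1% of all genes called, and 1 its highest, Cox7a2l, which encodes a supercomplex assembly protein. With arrays centred on their medians, which lowers tumour 7 because its median was the highest, the 29 became 43 (24.6% of all genes), and after a repeated quantile normalization 25 (19.7%). In tumour 8 the complexes deviated by -0.069, -0.14, -0.020, -0.0019 and -0.045 in the order I to V, and all genes called by 0.019. There 48 of the 72 subunit genes were below their own mean (6280 of 12715 for all genes called). The lowest level fell in tumour 8 for 14 of the 72, against 11.4% of all genes called. These patterns were noticed in the data and carry no test.

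The high side was less shared. Complex V had its highest mean in tumour 5 (0.19), complexes I and II in tumour 4 (0.094 and 0.16), and complex III in tumour 3 (0.12), with tumours 4 and 5 at 0.100 and 0.098. Tumour 5 was highest for complex V under each alternative run, but for complexes I, II and III the highest place passed between tumours 3, 4 and 5 under other scalings or averaged probe sets. For complex IV tumour 2 was highest (0.097), and without its 3 tissue-restricted isoforms that value was 0.030, tumour 4 was highest (0.031) and tumour 7 lowest (-0.055). Of the 72 genes, 22 were highest in tumour 5 (14.2% of all genes called) and 17 in tumour 4 (13.3%).

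**Figure D3:**
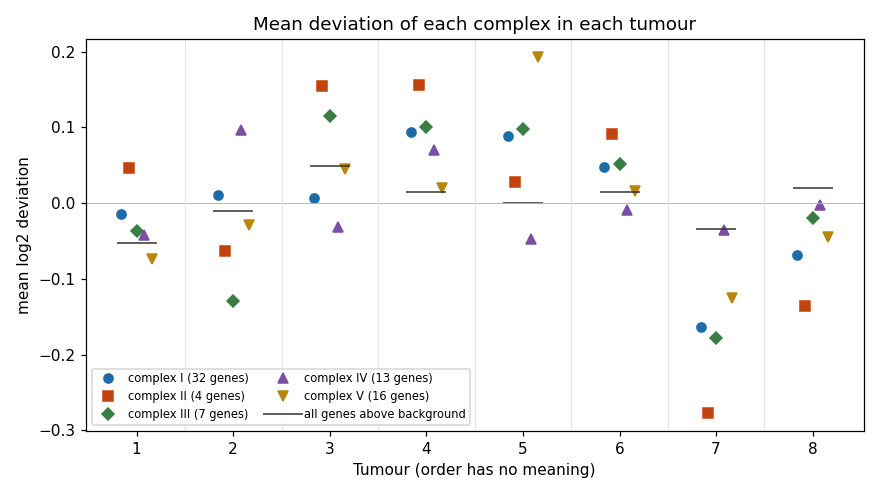
Mean log2 deviation (vertical axis) of each complex from its own average in each of the 8 tumours (horizontal axis, in no order). Symbols are complexes and horizontal dashes are all genes called above background. Complexes I, II, III and V are lowest in tumour 7 (-0.16, -0.28, -0.18 and -0.13), and complex V is highest in tumour 5 (0.19).

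Assembly factors and citric acid cycle enzymes also had their lowest means in tumour 7. Of 44 measured assembly factors, which build the complexes but are not part of them, 43 were above background, the exception being Ndufaf2 (5.82 ± 0.35). Their mean was -0.23 in tumour 7 and highest in tumour 3 (0.15). Of the 43, 17 were lowest in tumour 7, against 17.1% of all genes called. All 12 measured citric acid cycle enzymes were above background. Their mean was -0.20 in tumour 7, -0.14 in tumour 8 and 0.17 in tumour 4. Of the 12, 4 were lowest in tumour 7 and 4 in tumour 8, against 17.1% and 11.4% of all genes called. In tumours 7 and 8 alike, 11 of the 12 were below their own mean. The 7 measured electron carriers and subunits named outside the symbol rule (Ndufab1, Cyc1, Cycs, Atpif1, Etfa, Etfb and Etfdh) were all above background. Their mean was -0.16 in tumour 7, but 1 of the 7, Cyc1, was lowest there (-0.61), Ndufab1 and Cycs were above their means (0.057 and 0.052), and without Cyc1 the mean was -0.080. Regulators of mitochondrial biogenesis and mitochondrial DNA expression were called for 12 of 13, Ppargc1a (5.75 ± 0.54) being the exception. Their mean was 0.019 in tumour 7, highest in tumour 6 (0.29) and lowest in tumour 5 (-0.17). With tumour 6 left out it was 0.060 in tumour 7, highest in tumour 1 (0.084) and lowest in tumour 5 (-0.12).

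Genes of several other programmes also deviated in tumour 7, not all in 1 direction. There the 11 cell cycle genes called averaged -0.17, with 6 of the 11 lowest in that tumour (17.1% of all genes called). The 11 sympathoadrenal genes averaged 0.51 (-2.18 to 1.04 over the tumours), with 0 of the 11 below their own mean. The 13 of 15 hypoxia and glycolysis genes called averaged -0.19 (-0.20 to 0.32). The 8 of 10 endothelial genes called averaged -0.41 (-0.63 to 0.68 over the tumours), the 9 of 11 pericyte and mural cell genes -0.23 (-0.53 to 0.40), the 12 of 13 macrophage genes -0.0028 (-0.55 to 0.62) and the 8 of 10 fibroblast genes 0.50 (-0.61 to 0.76). In tumour 1 the endothelial, pericyte, macrophage and fibroblast means were -0.63, -0.53, -0.55 and -0.31. The complexes of tumour 1 deviated by -0.014, 0.047, -0.037, -0.043 and -0.074 in the order I to V. The part of cell composition in the low subunit levels of tumour 7 was not tested.

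**Figure D4:**
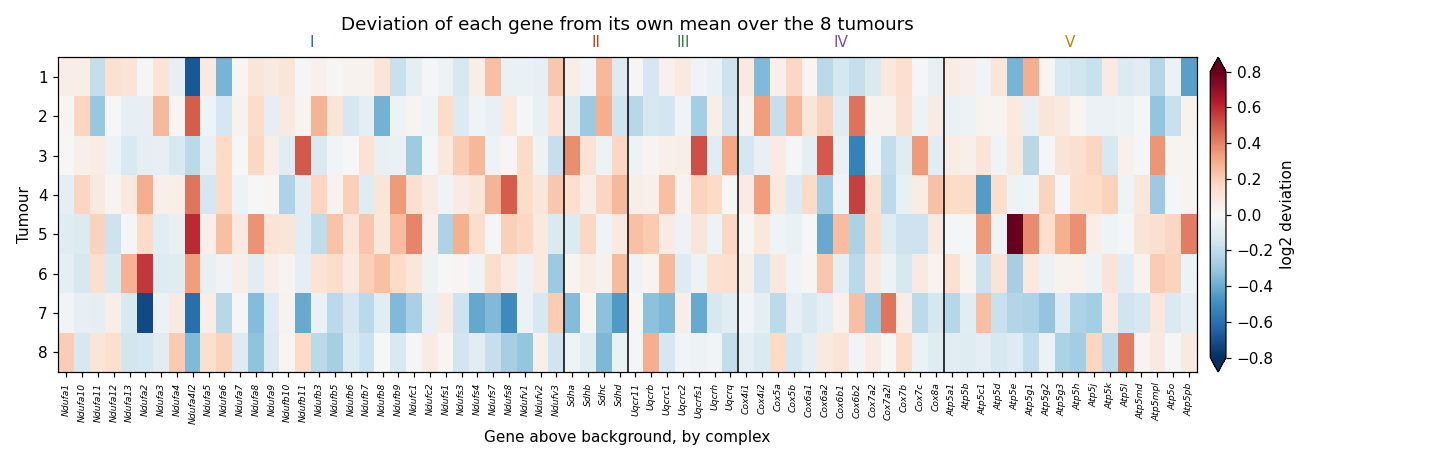
Log2 deviation of each of the 72 genes called above background (columns, by complex) from its own mean, in each tumour (rows); red is higher and blue lower than the mean, and colours are capped at 0.8. The row of tumour 7 is mostly blue (56 of 72 genes below their mean, against 57.5% of all genes called), and single columns such as Ndufa4l2, Ndufa2 and Atp5e stand out.

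In complex I the 6 measured core subunits, a group that holds the carriers of its flavin and iron-sulphur clusters, were lowest in tumour 7 (mean deviation -0.19) and next lowest in tumour 8 (-0.14), and highest in tumour 4 (0.17). Ndufs8, an iron-sulphur subunit, ran from 9.82 through a median of 10.37 to 10.82, and 4 of the 6 core genes were lowest in tumour 7. The iron-sulphur subunits Ndufs7 (11.39, 11.71 and 12.01) and Ndufs1 (8.53, 8.78 and 8.92) spanned less, with the lowest level in tumours 7 and 5. Among accessory subunits, Ndufa2 was lowest in tumour 7 (8.20), had a median of 8.88 and was highest in tumour 6 (9.49), a range of 2.44-fold, or 2.02-fold without tumour 6. The steadiest gene was Ndufc2, a membrane subunit, at 12.18 to 12.31 (SD 0.050).

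Ndufa4l2, a paralogue of Ndufa4 known as a target of hypoxia-inducible factors and as a pericyte gene, had the largest SD of all subunit genes (0.52), although Cox8b and Ndufa2 had slightly wider ranges (2.50-fold and 2.44-fold, against 2.42-fold). Its levels formed a higher and a lower set of 4 tumours each. Tumours 5, 2, 4 and 6 were at 7.28, 7.17, 7.11 and 7.01, and tumours 3, 8, 7 and 1 at 6.46, 6.33, 6.08 and 6.00. Against the 99th percentile of the receptor probe sets its mean was 0.090 higher, which did not pass in limma. Its widely expressed counterpart Ndufa4, now counted with complex IV by many authors, ran from 10.55 to 10.88 (median 10.64) and was highest in tumour 8.

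The 4 genes of complex II, succinate dehydrogenase, were above background in every tumour. Sdha, the flavoprotein that oxidises succinate, ran from 10.04 in tumour 7 through a median of 10.38 to 10.76 in tumour 3. Sdhb, the iron-sulphur subunit, ran from 8.74 in tumour 2 through 9.06 to 9.20 in tumour 5. The membrane anchors were Sdhc, from 8.97 in tumour 8 through 9.34 to 9.62 in tumour 2, and Sdhd, from 8.95 in tumour 7 through 9.42 to 9.67 in tumour 4. The 4 genes thus did not share 1 order of tumours: tumour 2 was lowest for Sdhb and highest for Sdhc. The widest range was 1.64-fold, in Sdha and Sdhd. Protein and mutation were not measured.

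In complex III the Rieske iron-sulphur protein gene Uqcrfs1 had the largest SD of the genes called above background (0.28) and ran from 7.32 in tumour 7 through a median of 7.68 to 8.24 in tumour 3. Uqcrc1, a core protein, ran from 10.57 in tumour 7 through 10.97 to 11.19 in tumour 6, and Uqcrb, a small subunit, from 11.44 in tumour 7 through 11.78 to 12.05 in tumour 8. Uqcrc2, the partner of Uqcrc1 in the core, spanned only 10.33 to 10.51 and was lowest in tumour 6, where Uqcrc1 was highest. Without tumour 6, Uqcrc1 was highest in tumour 4 (11.17) and Uqcrc2 lowest in tumour 5 (10.39). Of the 7 expressed genes, 4 were lowest in tumour 7.

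Complex IV had the lowest median SD and also held 7 of the 8 tissue-restricted isoforms. Cox4i1, the main form of subunit 4, had an SD of 0.076 (10.43 to 10.65), and Cox6a1 (12.34 to 12.62), Cox6b1 (9.70 to 10.09), Cox7a2 (10.96 to 11.40), Cox7b (11.35 to 11.66) and Cox8a (11.97 to 12.34) had SDs of 0.092 to 0.15. Among the genes of the complex called above background, the isoforms Cox6b2, Cox6a2 and Cox4i2 had the largest SDs (0.37, 0.30 and 0.24). Cox6b2, known from testis, ran from 5.68 in tumour 3 through 6.11 to 6.76 in tumour 4, and Cox4i2, the lung form induced by low oxygen, from 6.85 in tumour 1 through 7.14 to 7.54 in tumours 2 and 4. Against the 99th percentile of the receptor probe sets, Cox6a2 and Cox6b2 were below background (-0.37 for both).

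Cox8b, a heart and muscle isoform, had its 3 highest levels in the 3 tumours with the highest mean of skeletal muscle genes. Of 22 skeletal muscle markers, 12 were above background, among them Acta1 (7.03 to 10.43) and Ckm (5.91 to 8.75), while Myh7 (4.68 ± 0.23) and Tnnt1 (5.55 ± 0.20) were not. Others not called still reached high levels, such as Myh4 (8.96 in tumour 6) and Myh1 (8.20 in tumour 3). Of the 12 called, 9 were highest in tumour 6, but Mb was lowest there (5.76) and Tnni1 was lowest in tumour 3 (5.84). The mean of the 12 was 0.96, 0.60 and 0.59 in tumours 6, 8 and 3, 0.12 in tumour 2, and -0.39 to -0.66 in tumours 7, 5, 4 and 1. Cox8b was at 6.497, 6.159 and 6.004 in tumours 3, 6 and 8 and at 5.18 to 5.51 in the other 5. How many genes of the array split these tumours the same way was not counted. Cox8b was not called above background (0.078 over it on average, limma, adjusted p = 0.662). Cox6a2 was highest in tumours 3, 6, 2 and 8, at 6.72, 6.44, 6.41 and 6.30, and lay between 5.82 and 6.16 in the rest. Cox7a1 was highest in tumours 3 and 6 (6.08 and 6.00), followed by tumour 4 (5.87), where muscle markers were low. The part of muscle tissue in these levels was not tested.

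None of these relations passed correction. In limma, the slope on the muscle mean was 0.61 for Cox8b (SE 0.15), 0.38 for Cox6a2 (SE 0.11) and 0.28 for Cox7a1 (SE 0.12), each with an adjusted p of 0.768 over all genes. Without tumour 6 the slopes were 0.67, 0.47 and 0.28 (limma, highest adjusted p = 0.643), and over all alternatives the adjusted p of the 3 slopes lay between 0.6 and 0.997. Over all genes limma called 9 (0.0406%), all with a positive slope and 7 of them muscle markers of the list itself, and 0 of the 80 subunit genes. Without tumour 1 or tumour 5 it called 5. At an unadjusted p under 0.05 it found 5 of the 80 (6.25%; the 3 muscle isoforms, Ndufv3 and Uqcrh-ps1), against 6.42% of all genes. For Cox6a2, Pearson's r with the muscle mean was 0.846 (exact permutation p = 0.0118, two-sided, adjusted p = 0.247 over 32 relations) and Spearman's rho 0.786 (exact permutation p = 0.0279, adjusted p = 0.447). Without tumours 6 and 8, r was 0.972. For Cox7a1 r was 0.707 (exact permutation p = 0.0604, adjusted p = 0.387) and rho 0.643 (exact permutation p = 0.0962, adjusted p = 0.605), and without tumours 6 and 8 r was 0.627. Both were larger for Cox7a1 with the hypoxia and glycolysis mean. There r was 0.777 (exact permutation p = 0.0309, adjusted p = 0.247) and rho 0.810 (exact permutation p = 0.0218, adjusted p = 0.447). The levels of Cox8b formed separate sets, so a pooled r mixes the gap between them with differences within them. For Cox8b r was 0.820 (exact permutation p = 0.0176, adjusted p = 0.247). Its rho was lower, at 0.524 (exact permutation p = 0.197, adjusted p = 0.629), and without tumours 6 and 8 its r was 0.753. Within its lower set, tumour 2, with the highest muscle mean of that set, was at 5.32 and tumour 1, with the lowest, at 5.51. Of 7 cardiac markers 4 were called (57.1%, against 57.3% of all genes): Tnnt2, Nppa, Myl4 and Actc1, with means of 5.95 to 6.47. Myh6, Tnni3 and Myl7 were not. Of brown fat markers Ucp1 was at 4.79 ± 0.25, with 1 of 5 called (Cidea).

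**Figure D5:**
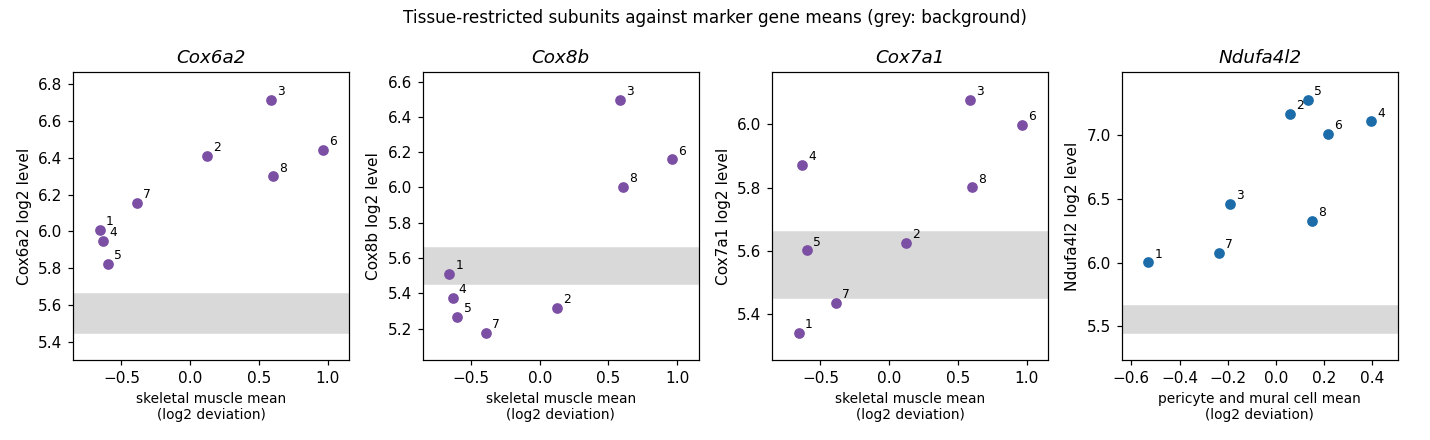
Log2 level (vertical axes) of 3 muscle isoforms against the mean deviation of 12 skeletal muscle genes, and of Ndufa4l2 against that of 9 pericyte and mural cell genes. Numbers are tumours and grey bands the background of the arrays. Tumours 3, 6 and 8 have the 3 highest levels of Cox8b (6.004 to 6.497).

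Ndufa4l2 was set against the pericyte and hypoxia genes in the same way. Its slope on the pericyte and mural cell mean was 1.35 (SE 0.40, limma, adjusted p = 0.614, and 0.346 to 0.999 over the alternatives). Without tumour 1 or tumour 7, which had the lowest pericyte means, the slope was 1.43 or 1.21. On the hypoxia and glycolysis mean the slope was 0.29 (SE 0.83, limma, adjusted p = 0.992). As the levels of Ndufa4l2 formed 2 sets, a pooled r again mixes the gap between them with differences within them. With the pericyte mean r was 0.775 (exact permutation p = 0.0270, adjusted p = 0.247) and rho 0.571 (exact permutation p = 0.151, adjusted p = 0.605). Without both tumours 1 and 7, r was 0.455. The pericyte list had 9 of 11 markers above background, with means of -0.53 in tumour 1 to 0.40 in tumour 4, and Higd1b (4.77 ± 0.064) and Kcnj8 (5.84 ± 0.45) were not called. The hypoxia list had 13 of 15 called, without Car9 (5.12 ± 0.26) and Adm (5.85 ± 0.90). Limma called 0 genes of the whole array on either mean, with 7.34% and 5.26% at an unadjusted p under 0.05, where Ndufa4l2 and Ndufb9 stood on the pericyte mean and Cox7a1 on the hypoxia mean, 2 and 1 of the 80 subunit genes.

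Against the sympathoadrenal mean, limma called 9 genes (0.0406%) and 0 of the 80 subunit genes. With a tumour left out the 9 became 0 to 64, and 0 without tumour 6. At an unadjusted p under 0.05 there were 3 of the 80, Ndufa2, Ndufa13 and Uqcrc1 (lowest adjusted p = 0.433, limma), against 11.1% of all genes. In tumour 6, where these markers were lowest, the complexes deviated by 0.047, 0.091, 0.051, -0.0089 and 0.016 in the order I to V.

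Complex V showed its widest differences in single genes. Atp5e, the epsilon subunit of the F1 stalk, was at 10.10 in tumour 5 and at 8.87 to 9.33 in the other 7. A second probe set of Atp5e was also highest in tumour 5. Atp5c1, the gamma subunit that turns in the F1 head, ran from 6.86 in tumour 4 through 7.31 to 7.64 in tumour 5, while Atp5b (12.39 to 12.64) and Atp5a1 (11.43 to 11.81), the beta and alpha subunits of that head, varied less. Atp5mpl, a small membrane subunit, ran from 8.73 in tumour 2 through 9.13 to 9.40 in tumour 3, and Atp5md, another one, had the smallest SD (0.079, 12.47 to 12.70).

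The 3 genes of the c ring, the rotor through which protons pass, encode the same mature protein from separate loci. Atp5g1 ran from 5.99 in tumour 7 through 6.20 to 6.62 in tumour 5, Atp5g2 from 12.09 in tumour 7 through 12.40 to 12.58 in tumour 4, and Atp5g3 from 9.51 in tumour 8 through 9.77 to 10.05 in tumour 5. Their mean deviation was lowest in tumours 7 and 8 (-0.22 and -0.16) and highest in tumour 5 (0.26). Atp5g1 was 0.66 above background and was below the stricter, 99th percentile background (-0.35). Many of these genes have processed pseudogenes of near-identical sequence, and whether their probe sets also read such copies was not tested.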

How the data were processed

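Total RNA of 8 tumours was extracted with Trizol, biotin-labelled and hybridised to Affymetrix arrays, per the labels' protocols. The authors deposited 1 log2 value for each probe set and array; RMA and Partek 6.5 are named in the submitters' processing notes, and a range of 2.07 to 13.61 is the basis for calling these values log2. No genome build was needed for them. Of 41345 probe sets, 23521 carry 1 gene symbol in the platform annotation, 1814 carry several and 16010 are unnamed here. Each gene was read from its own probe set with the highest mean (22180 genes). Arrays give no counts, and their number limits precision.

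Background was the 95th percentile of 1440 receptor probe sets per array. Limma 3.58.1 in R 4.3.3 (trend, robust prior, Benjamini-Hochberg over all genes) tested level above background, and each gene's slope on the mean of a list's centred, called genes. The slope is in log2 units per log2 unit of that mean. In simulated data on 22180 genes, 96% of genes raised by 0.6 over background and 80% of genes with a slope of 1 on the muscle mean, 33% with 0.5, were recovered. The simulation gave many genes a true slope at once, with noise independent between genes, which eases the adjusted threshold. In the data limma called 9 genes on the muscle mean, so the recovered shares may be too high for these data. For 8 tissue-restricted isoforms and 4 lists, r and rho used all 40320 permutations, adjusted over 32 relations. Promoters came from RefSeq (GRCm38.p6). Python 3.11.15, numpy 2.4.6, pandas 2.3.3, scipy 1.17.1 and matplotlib 3.10.9 did the rest.

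Genes and lists were chosen with earlier results of these data known. Named in the text by rule are genes not called, tissue-restricted isoforms and their counterparts, the Sdh and c ring genes, and per complex the 3 largest SDs and the smallest; others were chosen after their values were seen. Alternatives were averaging a gene's own probe sets, other scalings, backgrounds and variance models, fewer genes, other complex members and each tumour left out.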

Additional observations from a re-analysis of the deposited data

Results flagged for a closer look

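Of 46 measures examined (the 37 genes named by rule, the 5 complex means and 4 list means), 3 had 1 tumour far from the other 7, where chance gives about 1 in 20. Atp5e was at 10.10 in tumour 5 and between 8.87 and 9.33 elsewhere. Atp5g2 was at 12.09 in tumour 7 and between 12.35 and 12.58 elsewhere. The sympathoadrenal mean was at -2.18 in tumour 6 and between -0.32 and 1.04 elsewhere.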

How the results depend on the processing

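The count of 72 genes above background was the same under both rescalings, probe set averaging, the other variance model and without each tumour in turn (72 to 72), and was 78 and 68 against the median and 99th percentile backgrounds (90.9% and 41.9% of all genes). Against the median, Atp5j2 (1.63), Cox8c (0.91), Ndufs5 (2.10) and Uqcrh-ps1 (0.58) turned to above background, and Cox7a1 and Cox8b were called. Against the 99th percentile, Atp5g1 (-0.35), Cox6a2 (-0.37) and Cox6b2 (-0.37) turned below it, by construction of the level, and Ndufa4l2 (0.090) was no longer called. The count of genes with an SD of 0.5 or more ranged from 0 to 1 with a tumour left out (0 without tumour 1, 5 or 7). Centring arrays moved complex IV in tumour 7 to -0.11, as their medians differ by up to 0.13. The median SD of subunit genes lay between 0.15 and 0.18 under every alternative run. No subunit gene was called on any of the 4 list means under any alternative run; over all genes, restricting the test to genes above background moved the sympathoadrenal count from 9 to 56. No paired analysis was possible because there is 1 group. Alternatives for tumour 7 counts, the median SD, ranges and the biogenesis mean without tumour 6, and the mean without Cyc1 were chosen after seeing the data.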

Other observations

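The 9 subunit genes with a second probe set of their own show how far a tumour difference depends on the probe set read. Over the 8 tumours, the probe sets of Atp5g2 (r = 0.997), Ndufa8 (0.947), Atp5e (0.879) and Atp5d (0.737) varied together, those of Cox7b less so (0.505), and those of Atp5h (0.182), Ndufa11 (0.063), Ndufa12 (-0.084) and Cox5b (-0.11) did not. These r describe 8 arrays and carry no test. The second probe sets of Atp5h, Ndufa11, Ndufa12 and Cox5b had means of 7.13, 6.73, 6.80 and 5.90. Their first had 11.12, 10.21, 9.55 and 10.99. The second of Cox5b was at 5.41 in tumour 7, under the background range of 5.45 to 5.66. The second probe sets of Atp5g2, Ndufa8, Atp5e, Atp5d and Cox7b had means of 11.63, 7.71, 7.26, 10.28 and 5.98. The part of low level in the low r was not tested. Both probe sets of Atp5g2, Ndufa8, Atp5e, Atp5d and Cox5b were below their mean in tumour 7. The other 4 pairs differed in sign there. For Atp5h and Ndufa11 the second probe set was above its mean (0.080 and 0.16) and the first, which was the one analysed, below (-0.25 and -0.071). For Cox7b and Ndufa12 the first was above (0.047 and 0.049) and the second below (-0.033 and -0.043).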
